A study of Mus musculus with 20 samples.

Results

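The machinery that detects double-stranded and otherwise foreign-looking RNA inside cells was followed through 10 genes in DC2 cells, an immortalized mouse line from principal cells of the distal caput epididymis. The members were the rows of the deposited expression tables with the symbols Rigi, Ifih1, Dhx58, Mavs, Tlr3, Eif2ak2, Irf3, Irf7, Zbp1 and Adar, which came to 10 of 21509 protein-coding genes. Their levels were given as TPM, transcript abundances, scaled for transcript length and summing to the same total in every library. The study asked how fluid shear stress changes these cells and what the primary cilium, a sensory antenna of the cell surface, adds to that.

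One experiment held 4 libraries from cells given Ift88 siRNA and 4 from cells given control siRNA, both transfected with a lipid reagent. Ift88 is a carrier protein needed to build cilia. Per the study's methods both siRNA groups were placed under flow, the Ift88 reagent was a mixture of siRNAs from one supplier, and the control was a single scrambled siRNA from another, so that loss of Ift88 and the change of siRNA reagent cannot be told apart. The other experiment held 6 flow libraries, from cells under shear of 1 dyn/cm2 for 3 h, and 6 static libraries. Flow replicate 6 carries flow in its title and static among its other labels, and was taken by its title. Nothing in the labels says whether libraries of a group came from separate cultures, so the p-values measure the spread between these libraries, which may be technical.

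The targeted gene, Ift88, averaged 1.30 TPM ± 0.326 in its siRNA group against 4.14 TPM ± 0.0541 in the control siRNA group (SD, n = 4 each), without overlap. Of the markers of the named cell type, Krt18 averaged 145 and 144 TPM in the siRNA groups, but Epcam and Krt8 stayed under 1 TPM there and Aqp9, Lcn5 and Gpx5 were at or near 0, so that these defining markers of the mature epithelium were absent. The 8 immune cell markers summed to 89.3 to 100.02 TPM with Ift88 siRNA and to 93.4 to 101 TPM with control siRNA, nearly all of it Cd68, while Ptprc, which marks all leukocytes, did not exceed 0.0570 TPM and Cd3e was at 0. Genes listed above 0 numbered 15713 to 16682 in the Ift88 siRNA libraries and 15292 to 15382 in the control siRNA libraries, a difference without overlap whose part in the results below was not tested. Read depth is unknown, since only TPM were given.

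RIG-I (Rigi) and MDA5 (Ifih1) are helicases of the cytosol that bind viral or self double-stranded RNA, RIG-I mostly at short molecules with a triphosphate end and MDA5 along longer ones. Both signal through MAVS, an adaptor on mitochondria, to the transcription factors IRF3 and IRF7, which switch on interferon and interferon-stimulated genes. LGP2 (Dhx58) is a related helicase without the signalling domains. TLR3 senses double-stranded RNA in endosomes, PKR (Eif2ak2) stops translation on binding it, ZBP1 binds nucleic acids in the Z form and can trigger cell death, and ADAR edits adenosines in double-stranded RNA and so keeps self RNA from being sensed. Several of these genes are themselves interferon-stimulated.

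With Ift88 siRNA, Ifih1 was the 1 member that rose, by 1.60-fold over control siRNA on the scale of TPM + 1. RIG-I, LGP2 and the other sensors, adaptors and effectors did not pass the test. Ifih1 stood beside interferon-stimulated genes and chemokines, of which Ccl5, Ifit1, Isg15, Ifit2 and Oasl1 rose in the same libraries. A gene was called when its adjusted p was under 0.05 (limma on log2(TPM + 1), Benjamini-Hochberg over all 11209 genes tested) and its fold over 1.5, which 0.152% of the genes did upward and 0.0714% downward. Of the members, 9 reached the mean of 1 TPM needed for testing, 1 was called higher, none was called lower and 8 were not called. The call of Ifih1 sat at the threshold and held when 1 library was left out in only 1 of 8 cases.

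**Figure D1:**
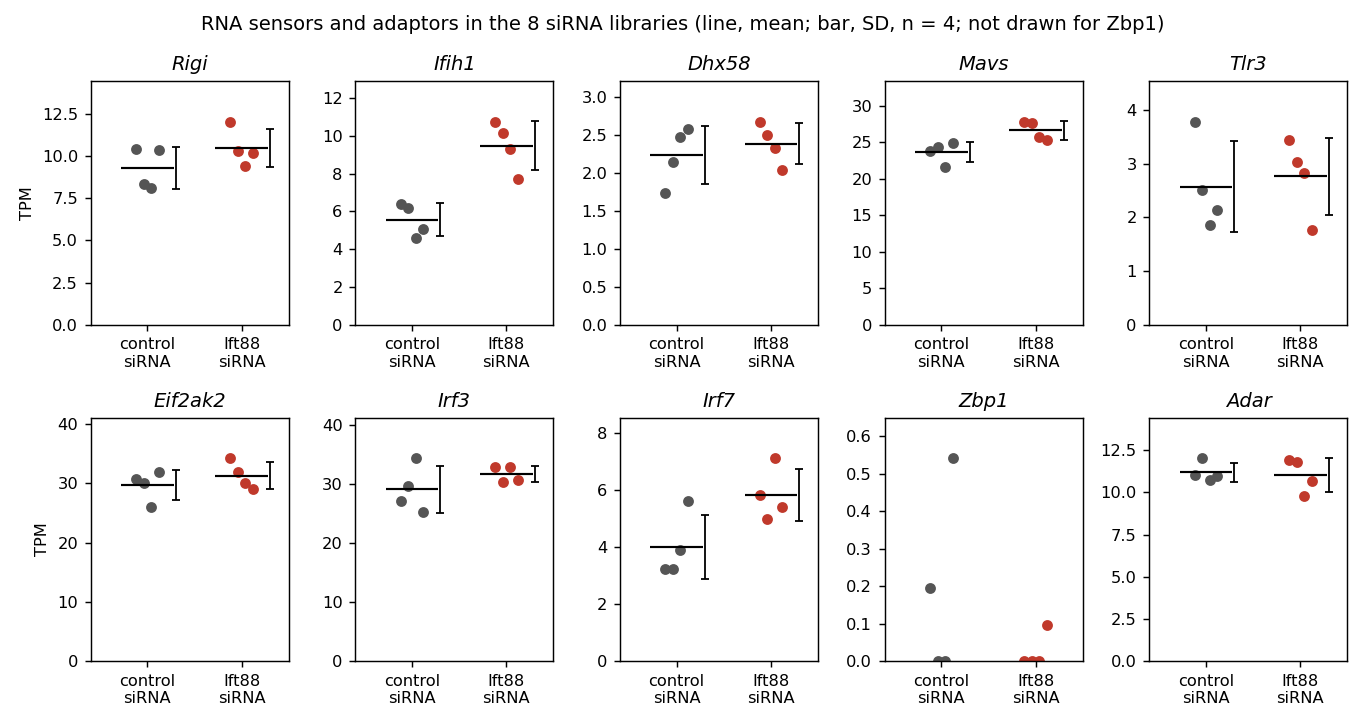
TPM (vertical axes, each from 0) of the 10 members in the 4 control siRNA and 4 Ift88 siRNA libraries; points are libraries, lines are means and bars are SDs, which are left out for Zbp1. The Ifih1 points of the Ift88 siRNA libraries, 7.74 to 10.8 TPM, all lie above those of the control siRNA libraries, 4.58 to 6.40 TPM, whereas the points of most other members overlap.

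Ifih1 was at 10.8, 10.1, 9.31 and 7.74 TPM in Ift88 siRNA replicates 1 to 4 and at 6.40, 6.19, 4.58 and 5.05 TPM in control siRNA replicates 1 to 4. The lowest Ift88 siRNA library lay above the highest control siRNA library. The means were 9.48 TPM ± 1.31 and 5.55 TPM ± 0.879 (SD, n = 4 each), a difference of 0.68 on the log2(TPM + 1) scale (SE 0.13, limma adjusted p = 0.0480), which is 1.60-fold with a 95% interval from 1.31 to 1.95. In bulk libraries, more cells with the transcript and more of it per cell cannot be told apart. Without 1 library the difference ranged from 0.60 to 0.76 and the adjusted p from 0.0367 to 0.151. The call was kept without Ift88 siRNA replicate 4 and lost without Ift88 siRNA replicate 1, 2 or 3 or without control siRNA replicate 1, 2, 3 or 4. It was lost as well when no filter on low TPM was applied (adjusted p = 0.144) or when genes from a mean of 0.1 TPM were tested (adjusted p = 0.0710). The difference was 0.68 in each, and the unadjusted p, 0.000206 as reported, was 0.000898 and 0.000331; the cause was not tested.

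Rigi, the partner sensor, was at 12.05, 10.3, 9.41 and 10.2 TPM with Ift88 siRNA and at 10.4, 8.37, 8.12 and 10.4 TPM with control siRNA, so that its groups overlapped. The difference was 0.16 (SE 0.12, limma adjusted p = 0.580), and the 95% interval of the fold ran from 0.936 to 1.33, below the 1.5-fold threshold. Dhx58 was at 2.67, 2.50, 2.33 and 2.03 TPM with Ift88 siRNA and at 1.73, 2.14, 2.47 and 2.58 TPM with control siRNA. Its difference of 0.07 (limma adjusted p = 0.865) had a 95% interval of the fold from 0.856 to 1.29. Whether the helicases moved by different amounts was examined as a ratio within each library. Ifih1 stood at 0.892, 0.983, 0.990 and 0.760 of the Rigi level in the Ift88 siRNA libraries and at 0.615, 0.740, 0.564 and 0.486 of it in the control siRNA libraries. No value of the first group overlapped the second, which in a two-sided exact permutation test of 4 against 4 libraries gave p = 0.0286, the smallest that the design allows, and 0.0571 after adjustment over the 4 ratio tests made. The ratio of Ifih1 to Dhx58 was 3.97 ± 0.111 and 2.60 ± 0.866 (SD, n = 4 each), with the same exact p = 0.0286 and adjusted value of 0.0571. Neither ratio therefore passed 0.05 after adjustment. Given the p of the flow ratios also tested, no lower adjusted value was possible. The test therefore cannot decide whether the helicases moved by different amounts.

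**Figure D2:**
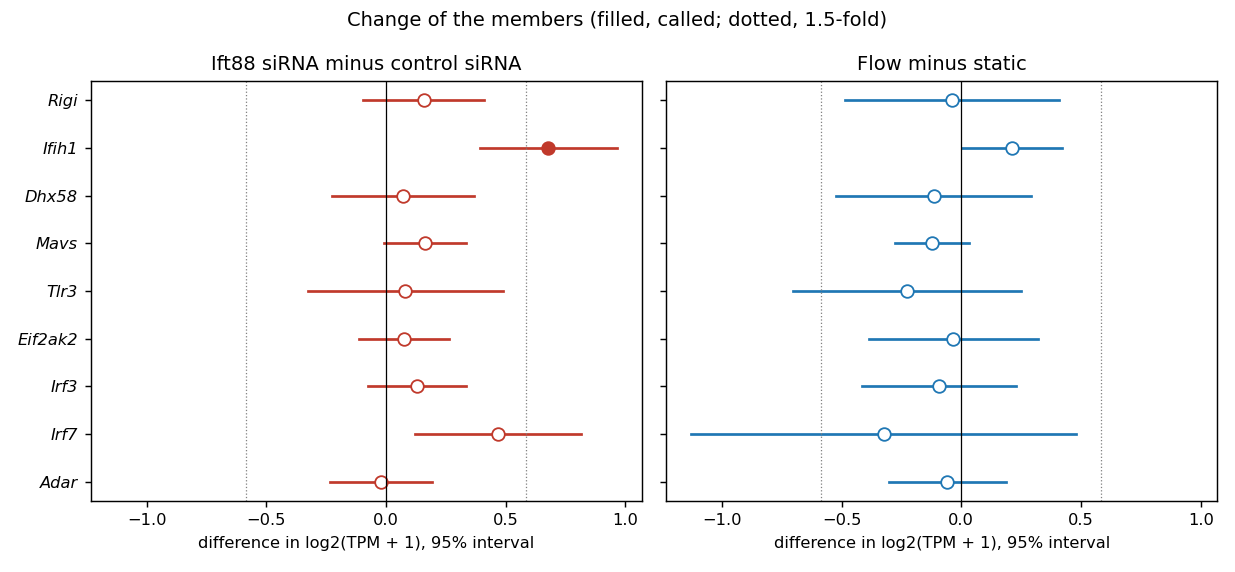
Difference in log2(TPM + 1) with its 95% interval for the 9 members tested, Ift88 siRNA minus control siRNA on the left and flow minus static on the right; the filled point marks the called gene and dotted lines mark a 1.5-fold change. Ifih1 at 0.68 on the left is the only filled point, and its value on the right is 0.21.

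Mavs, the adaptor shared by both helicases, was at 27.8, 27.7, 25.7 and 25.3 TPM with Ift88 siRNA and at 23.8, 24.4, 21.7 and 24.9 TPM with control siRNA. Its groups did not overlap, with Ift88 siRNA on the upper side, but the difference was small at 0.16 (SE 0.08, unadjusted p = 0.0617, limma adjusted p = 0.390). Groups lay apart in that direction for 5.79% of all genes tested and for 2 of the 9 members tested, Ifih1 and Mavs. Tlr3, the endosomal sensor, ranged from 1.76 to 3.44 TPM with Ift88 siRNA and from 1.87 to 3.79 TPM with control siRNA, a difference of 0.08 (limma adjusted p = 0.890). Its fold had a 95% interval from 0.798 to 1.40.

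Irf7, the interferon-inducible of the pair of transcription factors, was at 5.83, 4.98, 7.11 and 5.41 TPM with Ift88 siRNA and at 3.23, 3.23, 3.91 and 5.61 TPM with control siRNA. Control siRNA replicate 4 lay inside the range of the Ift88 siRNA libraries, and the other control siRNA libraries lay below it. The difference was 0.47 (SE 0.16, unadjusted p = 0.0119), and it was not called (limma adjusted p = 0.220). The interval of the fold ran from 1.09 to 1.76 and so included values past the threshold. Without control siRNA replicate 4 the difference was 0.61 with an adjusted p of 0.117. Ifih1 and Irf7 were the members with an unadjusted p under 0.05, both upward, as were 9.02% of all genes tested. Irf3, which is held ready in most cells and switched on by phosphorylation, ranged from 30.4 to 32.9 TPM and from 25.2 to 34.3 TPM, a difference of 0.13 (limma adjusted p = 0.574; fold interval 0.949 to 1.26).

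Among the effectors, Eif2ak2 ranged from 29.0 to 34.2 TPM with Ift88 siRNA and from 26.0 to 31.8 TPM with control siRNA, a difference of 0.07 with limma adjusted p = 0.749. Adar ranged from 9.80 to 11.9 TPM and from 10.7 to 12.02 TPM, a difference of -0.02 with limma adjusted p = 0.950. It was the 1 tested member with a lower mean with Ift88 siRNA, a sign that turned when libraries were weighted by their quality. The other 8 had a higher mean, as did 55% of all genes tested. The interferon-inducible and constitutive forms of ADAR come from one gene and could not be separated in these gene-level values. Zbp1 was listed at 0 in Ift88 siRNA replicates 1 to 3 and at 0.0982 TPM in replicate 4, and at 0.196, 0, 0 and 0.540 TPM in control siRNA replicates 1 to 4, too low to test. The median difference over the 9 members tested was 0.13, against 0.02 over all genes tested.

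Ifih1 spans chr2:62595798-62646255 on the minus strand of GRCm38 and Rigi, listed there under its older symbol Ddx58, chr4:40203773-40239828, also minus. Neither overlaps another annotated gene. Irf3 at chr7:44997648-45002848 shares part of its span with Bcl2l12 on the opposite strand, Irf7 at chr7:141262706-141266481 with Phrf1, Adar at chr3:89715022-89753446 with Chrnb2 and Dhx58 at chr11:100694884-100704271 with the antisense gene Dhx58os. Tlr3 at chr8:45395665-45411080 overlaps the antisense gene Gm45542, and Eif2ak2 at chr17:78852564-78882573 the noncoding genes n-R5s29 and Gm26637, all on the opposite strand. The libraries kept strand, but whether the quantification used it is not given in the sources used here, so reads of these 6 genes may include some of their opposite-strand partners. Mavs lies at chr2:131234063-131248025 and Zbp1 at chr2:173206612-173218923.

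Promoter windows were read from RefSeq (GRCm38.p6, 250 bases before to 50 after each annotated start) because many interferon-stimulated genes carry an interferon-stimulated response element. The windows were searched for GAAANNGAAA on either strand, a core of that element. Windows were found for 8 of the 10 members. Of these 8, the motif was present in Rigi, Ifih1 and Eif2ak2, that is 37.5%, against 3.99% of 27025 genes with a window and 57.1% of 14 genes of the list of interferons and targets. Among the target genes described below, Ifit1, Isg15 and Cxcl10 held the motif, Ifit2 did not in either of its 2 windows, and Ccl5 is not in the promoter table. The stretch around the first match is shown for the 3 members and for the 3 target genes that held it, 5′ to 3′ on the gene's strand, with matched bases in capitals and TTTCNNTTTC marking a match on the other strand.
Ifih1, chr2:62646206-62646233, minus: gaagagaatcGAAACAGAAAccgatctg
Rigi, chr4:40239804-40239833, minus: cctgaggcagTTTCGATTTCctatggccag
Eif2ak2, chr17:78882535-78882564, minus: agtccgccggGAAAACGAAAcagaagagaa
Ifit1, chr19:34640775-34640804, plus: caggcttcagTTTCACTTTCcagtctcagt
Isg15, chr4:156200877-156200906, minus: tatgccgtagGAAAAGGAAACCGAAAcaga
Cxcl10, chr5:92349083-92349112, minus: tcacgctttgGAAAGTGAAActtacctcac
The first match begins at base 33 from the start for Ifih1, at base 3 for Rigi and at base 19 for Eif2ak2, and 104, 78 and 213 bases before the start for Ifit1, Isg15 and Cxcl10. The window of Isg15 held 3 matches, of which 2 overlap within the stretch shown, and that of Ifit1 held 2. Of the genes shown, Ifih1, Ifit1 and Isg15 were called with Ift88 siRNA and Rigi, Eif2ak2 and Cxcl10 were not, while Ifit2 was called and held no match.

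The rest of the pathway was taken from 9 lists with 99 genes, of which 96 were in the tables and 74 were tested in the siRNA experiment. Of the 74, 5 were called higher and none lower. Of those, 4 belonged to the interferons and their targets and 1 to the list of OAS proteins and their partners.

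Ccl5, a chemokine that draws T cells and monocytes, was at 155, 148, 176 and 172 TPM with Ift88 siRNA and at 71.9, 71.5, 65.7 and 53.6 TPM with control siRNA. The groups lay far apart. The difference was 1.30 (SE 0.09, limma adjusted p = 5.01e-05), the largest of the pathway genes tested. Ifit1, which blocks translation of RNA with foreign caps, averaged 28.3 TPM ± 3.94 and 13.9 TPM ± 1.02 (SD, n = 4 each), a difference of 0.97 (limma adjusted p = 0.00206). Isg15, a ubiquitin-like protein that is attached to other proteins after interferon, averaged 48.6 TPM ± 3.56 and 28.1 TPM ± 4.77, a difference of 0.79 (limma adjusted p = 0.00855). These 3 genes stayed called whichever library was left out. With no filter on low TPM, Ccl5 and Ifit1 stayed called (limma adjusted p = 0.00982 and 0.0177), and Isg15, Ifit2 and Oasl1 did not (0.0768, 0.105 and 0.108).

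Ifit2, a relative of Ifit1, averaged 52.2 TPM ± 8.93 and 33.3 TPM ± 1.87 (SD, n = 4 each), a difference of 0.62 (limma adjusted p = 0.0209) that was called without 5 of the 8 libraries and not without Ift88 siRNA replicate 1, control siRNA replicate 1 or control siRNA replicate 4 (adjusted p up to 0.0650). Cxcl10, another chemokine, averaged 218 TPM ± 8.37 and 147 TPM ± 7.80, a difference of 0.57 (limma adjusted p = 0.00149) that was just short of the 1.5-fold threshold at 1.49-fold. On the adjusted p alone 1 member and 6 of the 74 pathway genes were higher, against 0.455% of all genes tested. Over the 10 tested interferons and targets the median difference was 0.51. Interferon transcripts themselves were scarce, with Ifnb1 at 0.213 TPM in Ift88 siRNA replicate 2, at 0.372 TPM in control siRNA replicate 4 and listed at 0 in the other 6 libraries.

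In the list of OAS proteins, which are interferon-inducible and bind double-stranded RNA, and their partners, 4 genes were tested and Oasl1 was called. It averaged 4.58 TPM ± 1.00 and 1.79 TPM ± 0.603 (SD, n = 4 each), a difference of 1.01 (SE 0.17, limma adjusted p = 0.0238). Oasl1 is known for holding back translation of Irf7. Its call was kept without Ift88 siRNA replicate 3 or 4 or control siRNA replicate 2 and lost without the other 5 libraries (adjusted p up to 0.102). Oasl2 averaged 3.45 and 2.24 TPM (difference 0.42, limma adjusted p = 0.421).

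Genes that carry the signal from MAVS and TLR3 onward showed no such calls. Of all genes tested only 0.223% were called in either direction. No call is therefore the usual outcome for a list of this size, here and in the lists that follow. In the signal relay none of 17 tested genes was called and the median difference was -0.0011. The smallest p there were those of Tradd, a death-domain adaptor (38.5 and 33.0 TPM, difference 0.22, limma adjusted p = 0.185), Ticam1, the TLR3 adaptor TRIF (9.51 and 7.61 TPM, difference 0.28, limma adjusted p = 0.301), and Tank, a scaffold of the kinase TBK1 (33.3 and 29.7 TPM, difference 0.16, limma adjusted p = 0.439). None of the 10 tested brakes on the pathway was called, with Rbck1 at 75.5 and 66.7 TPM (difference 0.18, limma adjusted p = 0.245), Atg12 at 18.4 and 16.0 TPM (0.19, adjusted p = 0.409) and Atg5 at 51.5 and 55.9 TPM (-0.12, adjusted p = 0.449) at the head of the list.

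Other readers of double-stranded RNA were likewise not called, none of 13, with Stau2 (difference 0.16, limma adjusted p = 0.342) and Drosha (0.14, adjusted p = 0.406) the nearest. On the branch of PKR, where phosphorylated eIF2α stops translation, none of 8 genes was called. Ppp1r15a, which directs removal of that phosphate, was at 109 and 85.2 TPM (difference 0.37, limma adjusted p = 0.185), Ddit3, a transcription factor of the stress response, at 168 and 141 TPM (0.26, adjusted p = 0.320), and Eif2ak4, the kinase that senses amino acid shortage, at 7.24 and 8.31 TPM (-0.18, adjusted p = 0.491). Downstream of ZBP1, Ripk1, Casp8 and Mlkl differed by -0.14, 0.10 and 0.06 and none of the 3 was called (limma adjusted p from 0.565 to 0.825). Of the other endosomal Toll-like receptor genes none of 4 was called, with Unc93b1, the chaperone that brings TLR3 and its relatives to endosomes, at 48.0 and 40.6 TPM (0.24, limma adjusted p = 0.239), and Irak1 and Myd88 at -0.12 and 0.09. None of 6 DNA sensing genes was called, with Ifi204 at 16.5 and 12.8 TPM (0.34, limma adjusted p = 0.216), Trex1 at 0.14 and Sting1, the adaptor of that pathway, at 0.04.

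**Figure D3:**
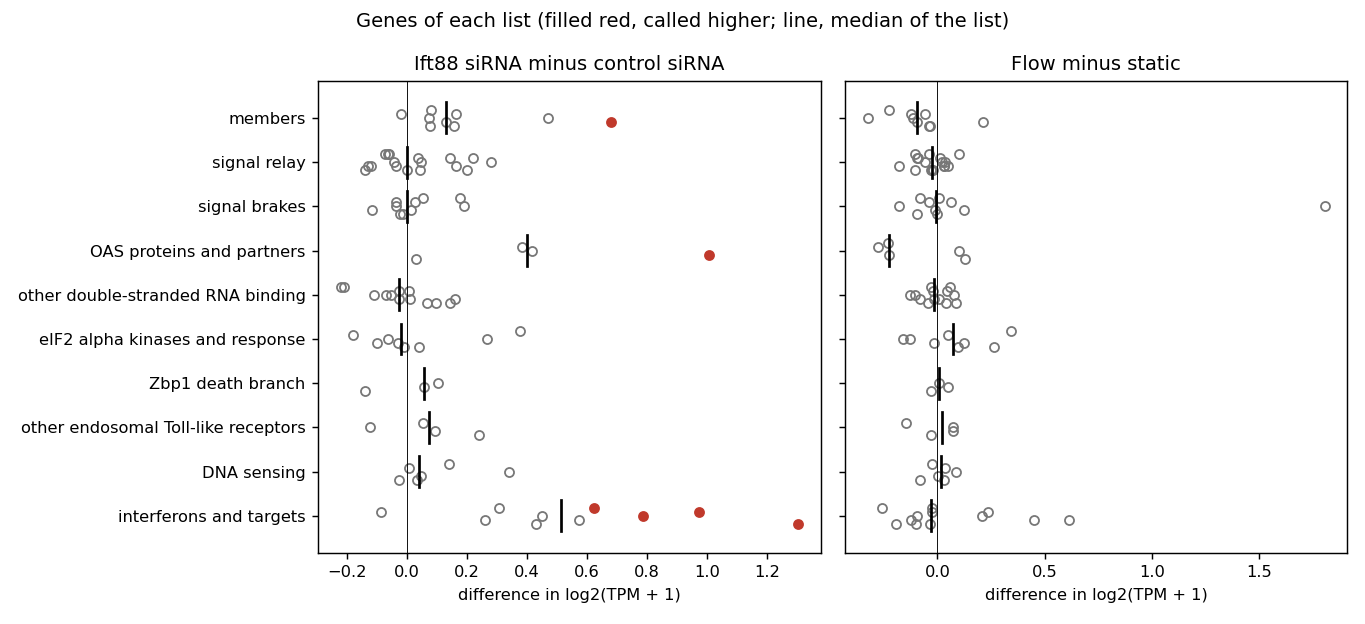
Difference in log2(TPM + 1) of each tested gene of the members and of the 9 pathway lists (rows), for Ift88 siRNA minus control siRNA on the left and flow minus static on the right; filled red points are called higher and the black line is the median of the list. On the left the called points are Ifih1, Oasl1 and 4 interferon targets, and on the right no point is filled, with Tnfaip3 farthest out at 1.80.

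No member was called under shear stress by the same rule. Of 11388 genes tested in that experiment 0.105% were called higher, and none of the 9 tested members was called in either direction. At an unadjusted p under 0.05, which 3.85% of genes reached, there was 1 member, Ifih1. Same-numbered flow and static libraries deviated together over all genes, so the model was also run with replicate number as a blocking factor. It called 0.597% of the genes higher and again none of the members.

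Ifih1 was at 6.02, 5.16, 5.98, 6.15, 5.37 and 6.88 TPM in flow replicates 1 to 6 and at 4.98, 5.21, 5.50, 5.24, 4.04 and 4.90 TPM in static replicates 1 to 6. The flow library was the higher of its number in 5 of 6 pairs, and the groups overlapped. The difference was 0.21 (SE 0.10, unadjusted p = 0.0458, limma adjusted p = 0.998), the fold 1.16 with a 95% interval from 1.00 to 1.34, and the adjusted p was 0.400 with the block. The difference was 0.17 without both libraries of replicate 6 and 0.12 with flow replicate 6 counted as static. Within the experiment's first 3 replicate numbers it was 0.11 and within the last 3 it was 0.32. The ratio of Ifih1 to Rigi averaged 0.521 ± 0.178 under flow and 0.417 ± 0.115 in static cells (SD, n = 6 each; two-sided exact permutation p = 0.301). Whether the Ift88 siRNA and flow differences of Ifih1 differ was not tested.

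The other 8 tested members had lower means of log2(TPM + 1) under flow than in static cells, so that 1 of 9 had a higher one, against 38.8% of all genes tested. Irf7 had the lowest value, a difference of -0.32 with a wide interval of the fold from 0.457 to 1.39 (limma adjusted p = 0.998, 0.449 with the block). It ran from 2.15 to 17.3 TPM over the flow libraries with a median of 5.90, and from 4.52 to 16.7 TPM over the static libraries with a median of 8.47. Rigi ran from 8.58 to 21.4 TPM under flow and from 9.17 to 17.6 TPM in static cells, a difference of -0.04 in log2(TPM + 1) with a fold interval from 0.715 to 1.33, while its mean TPM was 12.63 under flow and 12.58 in static cells. Tlr3 differed by -0.23, Mavs and Dhx58 by -0.12 each, Irf3 by -0.09, Adar by -0.06 and Eif2ak2 by -0.03. Zbp1 ran from 0.0292 to 0.963 TPM under flow and from 0 to 0.772 TPM in static cells and was not tested. All of these ranges overlapped.

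None of the 77 tested pathway genes was called under flow either. Tnfaip3, the ubiquitin-editing brake A20, came nearest, at 24.2 to 175 TPM with a median of 57.5 TPM under flow and 14.8 to 19.1 TPM in static cells, without overlap (difference 1.80, limma adjusted p = 0.105). It was called with the replicate block (adjusted p = 0.0302) and without flow replicate 2 (adjusted p = 0.00867). Cxcl10 averaged 418 and 268 TPM (difference 0.61, unadjusted p = 0.0109, limma adjusted p = 0.817), and it too was called without flow replicate 2 (adjusted p = 0.0482). Ppp1r15b, the constitutive partner of Ppp1r15a, averaged 40.2 and 33.2 TPM (0.26, unadjusted p = 0.00959, limma adjusted p = 0.800). These 3 were the pathway genes with an unadjusted p under 0.05.

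**Figure D4:**
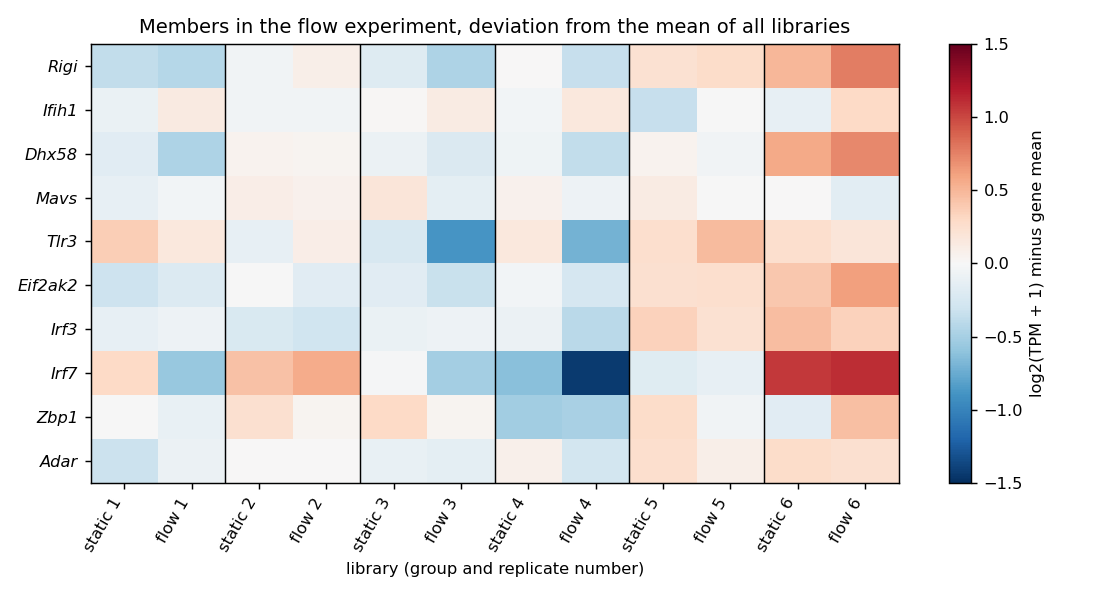
Deviation of each member (rows) from its mean over the 12 libraries of the flow experiment, in log2(TPM + 1), with the static and flow library of each replicate number side by side (columns). For most members the colours change from one pair of columns to the next more than within a pair, and both libraries of replicate 6 are red for Rigi, Dhx58, Eif2ak2 and Irf7.

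In the flow experiment 7 of the 9 tested members varied far more between replicate numbers than between flow and static. Over all genes tested the median shares of variance were 70.0% for replicate number and 3.85% for flow against static. The pattern was thus not particular to the members. Replicate number held 91.2% of the variance of Rigi in log2(TPM + 1), 91.0% of that of Dhx58, 92.4% for Eif2ak2, 92.2% for Irf3 and 86.2% for Irf7, against a median of 70.0% over all genes tested. Flow against static held between 0.269% and 7.91% of the variance of these and of Tlr3 and Adar. Replicate number held 66.2% for Tlr3 and 76.0% for Adar. Replicate number has more levels than flow against static, so a larger share falls to it by chance as well. For Ifih1 the order was the other way, with 34.3% held by replicate number and 45.4% by flow against static, and for Mavs both were near, at 33.6% and 32.2%. Flow replicate 6 was the highest flow library for 8 of the 10 members and static replicate 6 the highest static library for 6 of them. Rigi was at 21.4 TPM in flow replicate 6 and 17.6 TPM in static replicate 6, and between 8.58 and 14.9 TPM in the other 10 libraries. Irf7 was at 17.3 and 16.7 TPM in these libraries and between 2.15 and 11.6 TPM in the others. Cd68 also stood high in both, at 39.6 and 64.0 TPM against 10.1 to 22.8 TPM in the others. Ptprc was at most 0.0310 TPM in the replicate 6 libraries. Ddit3 was at 373 and 686 TPM there against 145 to 254 TPM in the others. Usp18, from the list of interferons and targets, was at 7.12 and 5.92 TPM against 0.632 to 2.23 TPM. The part of these genes in the result was not tested. With both libraries of replicate 6 left out, the share was 83.4% for Rigi, 63.3% for Dhx58, 85.9% for Eif2ak2, 86.8% for Irf3 and 74.2% for Irf7, beside a median of 68.5%, so that Dhx58 then lay below the median gene.

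Over all 20 libraries, with log2(TPM + 1) centred on the mean of each table, the gene of 10894 that was most like Ifih1 was Ifit1 (Pearson r = 0.96), followed by Atl2 (0.81) and Isg15 (0.80). These correlations are descriptions over libraries that share their experiments and groups. Centring on the table mean leaves the differences between groups in r. Centred on the group mean instead, the genes most like Ifih1 were Atad1 (0.85), Ifit1 (0.83) and Ggta1 (0.82), without Atl2 and Isg15. In the flow table alone, over 12 libraries, the r of Ifih1 with Ifit1 was 0.92. The gene most like Rigi was Eif2ak2 (r = 0.95), followed by Ly6e and Golm1 (0.92 each), and for Eif2ak2 the order was Rigi, Irgm1 (0.94) and Emilin2 (0.93). Between Rigi and Ifih1 the r was 0.15 over all 20 libraries, 0.60 over the 8 of the siRNA table alone and -0.07 over the 12 of the flow table alone. With the other 7 members that could be compared, Ifih1 had values from -0.07 for Adar to 0.28 for Mavs. Rigi had 0.83 with Dhx58 and 0.81 with Adar. These values were 0.91 and 0.88 in the flow table alone and 0.15 and 0.23 in the siRNA table alone. Without both libraries of replicate 6 they were 0.60 and 0.71. There Rigi had 0.88 with Eif2ak2, and Ifih1 had 0.96 with Ifit1.

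**Figure D5:**
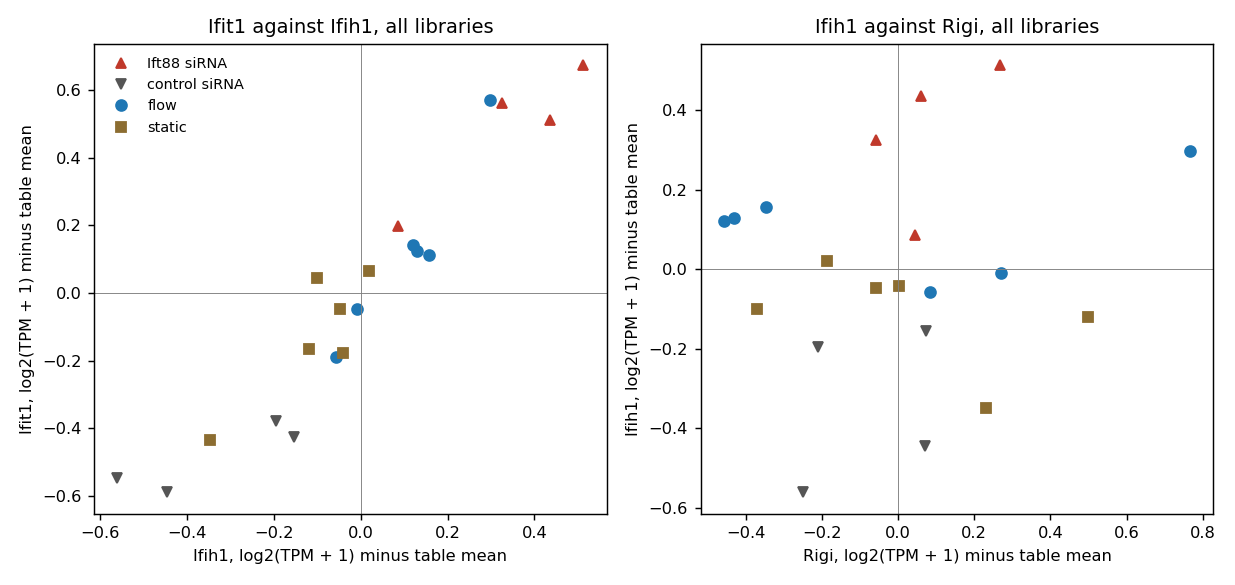
Deviation from the table mean in log2(TPM + 1) over the 20 libraries, Ifit1 (vertical) against Ifih1 (horizontal) on the left and Ifih1 (vertical) against Rigi (horizontal) on the right; symbols mark the 4 groups. The points on the left lie along a line (r = 0.96) with Ift88 siRNA libraries and flow replicate 6 toward the top and control siRNA libraries and static replicate 5 toward the bottom, and those on the right do not (r = 0.15).

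Irf7 was most like Ptgds (r = 0.89), Bst2 (0.88), an interferon-stimulated tether of virus particles, and Pla2g2e (0.85), and Dhx58 like Pla2g2e (0.88), Msh5 and Ccdc174 (0.86 each). The values of Dhx58 leaned on replicate 6 and were 0.72, 0.60 and 0.60 without it. The other members were most like genes outside the lists used here. Adar came closest to Lamb2 and Clcn7 (0.90 each) and Micall1 (0.89), Irf3 to Scamp3 (0.88), Ppcdc and Trmt2a (0.87 each), Mavs to Rbm43 (0.86), Lta4h and Elp3 (0.85 each), and Tlr3 to Egfr (0.77), Rsrp1 (0.73) and Ccnl2 (0.71).

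On the TPM scale, which accounts for length, the order of the members was much alike in the 4 groups. Irf3 and Eif2ak2 were the highest, at 28.1 to 31.7 TPM and 25.5 to 31.3 TPM on average, and did not differ beyond their spread in any group. Mavs followed at 20.8 to 26.6 TPM. Below Adar came the sensors with a shared adaptor, Rigi at 9.32 to 12.6 TPM and Ifih1 at 4.98 to 9.48 TPM, with Irf7 at 4.00 to 9.22 TPM on either side of Ifih1. Rigi lay above Ifih1 without overlap in the control siRNA group, and with Ift88 siRNA the ranges of the pair overlapped. Dhx58 and Tlr3, both under 4 TPM on average, overlapped in every group, and Zbp1 was the lowest throughout. Adar averaged 11.03 and 11.2 TPM in the siRNA groups and 19.97 and 20.9 TPM in the flow experiment, levels that come from separately normalized tables and were not compared by a test.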

How the data were processed

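RNA-seq of DC2 cells was made from poly(A)-selected, strand-specific, paired-end libraries. The authors quantified reads with kallisto (0.46.2, per the submitters' processing notes, which also name fastp 0.20.0, FastQC 0.11.8 and MultiQC 1.8) against an Ensembl transcriptome and deposited TPM per gene in one table for each experiment; library depth is unknown, which limits the precision of low values. Each table held 21509 genes and no columns of other samples (0 left out).

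Groups came from the labels. limma (3.58.1, R 4.3.3) was fitted to log2(TPM + 1) with a trended prior, in each table alone, restricted to genes averaging 1 TPM or more; p-values were adjusted over all of these (Benjamini-Hochberg). The thresholds, adjusted p of 0.05 and 1.5-fold, follow the study's methods; folds were read from log2(TPM + 1) differences, which makes those of low genes too small. Ratios were compared by exact permutation (scipy 1.17.1). Named were all members, per list the called genes or up to 3 with the smallest p, the 3 genes most like each member by Pearson r, Ift88, and markers; a few that this rule names are not reported here. Members and lists were chosen with earlier results of these data known. No libraries held identical values. The script was tested on simulated data.

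Replicate numbers were shared between groups. Deviations of same-numbered flow and static libraries correlated by 0.294 to 0.662 in all 6 pairs, and these were treated as paired in the block fit. Flow replicate 3, however, correlated best with static replicate 1. The pairing comes from the data, not the labels. The alternatives tried were other filters, library weights, a pseudocount of 0.1, the replicate block, scaling by median of ratios, subsets of replicates, flow replicate 6 counted as static, and leaving out each library; leaving out both libraries of replicate 6 was chosen after seeing the data. Gene positions are from GENCODE M21 (GRCm38), and the authors' annotation was a later Ensembl release.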

Additional observations from a re-analysis of the deposited data

Results flagged for a closer look

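Of 40 checks for a library far from the others of its group, 3 stood out, and chance alone marks about 1 group in 20. Dhx58 was at 6.40 TPM in flow replicate 6, with the other 5 flow libraries between 2.27 and 3.62 TPM. It was at 5.66 TPM in static replicate 6, with the other 5 static libraries between 3.02 and 3.68 TPM. Zbp1 was at 0.0982 TPM in Ift88 siRNA replicate 4 and listed at 0 in the other 3 Ift88 siRNA libraries. With the others at 0, any value above 0 would have been marked, so the rate of 1 in 20 does not hold there.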

How the results depend on the processing

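In the siRNA experiment the count of called members was 1 and became 0 with no filter on low TPM and with genes from a mean of 0.1 TPM, and it ranged from 0 to 1 as each library was left out. The count of called pathway genes was 5, became 2 with no filter, and ranged from 3 to 6 as each library was left out. With the replicate block, Ifih1 had a limma adjusted p of 0.0228 and again 1 member was called. Same-numbered siRNA libraries correlated by only 0.00276 to 0.259. Of the 4 Ift88 siRNA libraries, 2 correlated best with the control siRNA library of their own number. Whether same-numbered siRNA libraries share more than a number is not known. The block moved all calls from 25 to 44. No call of a member changed with the block under flow. The sign of Adar in the siRNA experiment turned with library weights (0.0046), and its difference ranged from -0.055 to 0.030 as each library was left out, that of Dhx58 from -0.0066 to 0.12 and that of Tlr3 from -0.016 to 0.23. Under flow 0 members were called with any alternative run, and pathway genes called numbered 0 to 2 as each library was left out, 2 with library weights, 1 with the replicate block and 1 in replicates 4 to 6 only. The sign turned for Adar in replicates 1 to 3 only (0.067) and for Eif2ak2 in replicates 4 to 6 only (0.0041), and as each library was left out Rigi ranged from -0.20 to 0.057 and Eif2ak2 from -0.16 to 0.043. Of the 27 genes most like a member, 13 were kept when libraries were centred on their group mean. The causes of these shifts were not tested. TPM without counts limit what can be said of Zbp1 and of other genes near 0.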
